A study of Mus musculus with 12 samples.

Results

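Map3k12 and Pcbp2 are neighbouring mouse genes on chromosome 15 that are read in opposite directions and whose last exons overlap. They were chosen, as 2 of the 24421 genes of the count table, because Map3k12 was among the most counted genes and had fewer counts in every library with silenced Ctnnb1, and because Pcbp2 shares bases with it. That choice used the silencing comparison, so the silencing values of both genes are given as a description and were not tested. The RNA came from small mouse cholangiocytes (SMCCs), an immortalized line of bile duct epithelial cells, in 12 libraries of 4 groups with 3 libraries each. For silencing of Ctnnb1, the β-catenin gene, cells were transfected with a control siRNA (si-CTL) or with an siRNA against Ctnnb1 (si-Ctnnb1) using Lipofectamine RNAiMAX for 24 hr. For activation, cells received a plasmid for eGFP (eGFP) or for the stable S45Y mutant of β-catenin (S45Y) using Lipofectamine 3000 for 48 hr. The effects of the nucleic acid, the reagent, the time and the depth cannot be told apart between the siRNA and the plasmid libraries, so the treatments were assessed only as si-Ctnnb1 against si-CTL and S45Y against eGFP, and levels over all 4 groups are a description.

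Map3k12 encodes DLK, the dual leucine zipper kinase, a MAP kinase kinase kinase that signals through MKK4 and MKK7 to the stress kinase JNK. It is best known in neurons, where it acts after axon injury, and its protein is kept stable by the HSP90 chaperone and removed through ubiquitination. Pcbp2 encodes poly(C)-binding protein 2, a KH-domain protein that binds C-rich RNA, controls the stability, splicing and translation of messenger RNAs, carries iron to ferritin, and limits antiviral signalling through MAVS.

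On mm10, Map3k12 (ENSMUSG00000023050.9) lies at chr15:102497646-102517064 on the minus strand, and Pcbp2 (ENSMUSG00000056851.14) lies at chr15:102470539-102500061 on the plus strand. Merged over its 8 annotated transcripts, Map3k12 has 17 exons with 8989 bases. Merged over its 31 transcripts, Pcbp2 has 19 exons with 5203 bases. The genes run toward each other, and their exons overlap at chr15:102498489-102500061, a stretch of 1573 bases. This stretch is the whole last exon of Pcbp2, with 34 coding bases before its stop codon and the 3′ UTR after them. It is also 62.1% of the last exon of Map3k12 (chr15:102497646-102500176, 2531 bases), where all of it is 3′ UTR. The overlap makes up 17.5% of the exon bases of Map3k12 and 30.2% of those of Pcbp2.

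**Figure D1:**
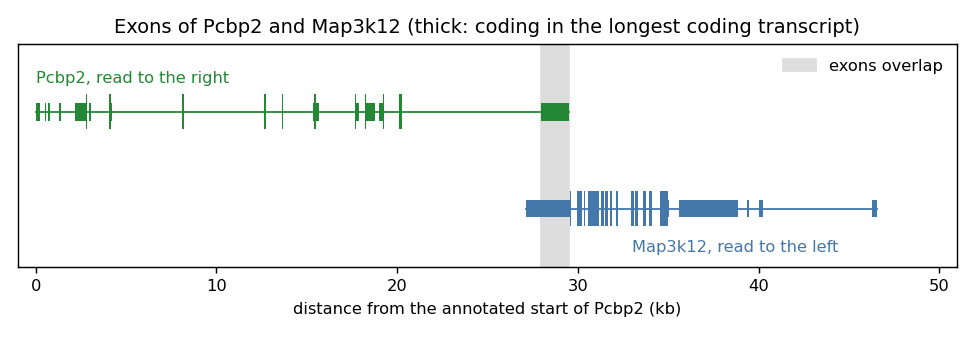
Exons of Pcbp2 (green, upper row, read to the right) and Map3k12 (blue, lower row, read to the left) against the distance in kb from the annotated start of Pcbp2, with thick boxes for coding bases and thin boxes for the rest. The grey band marks the 1573 bases where the exons of both genes overlap, which hold the last exon of Pcbp2 and none of the coding bases of Map3k12.

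The ends of the coding sequences show how closely the genes meet. The 30 bases that end the coding sequence of Pcbp2, at chr15:102498496-102498525 on the plus strand, are given with the stop codon in capitals, then the same positions as they are read in the 3′ UTR of Map3k12, with the complement of that stop codon in capitals. The last line holds the end of the Map3k12 coding sequence, at chr15:102500081-102500110 on the minus strand, with its stop codon in capitals.
Pcbp2 coding end: tcggagacaggtggcatggggagcagcTAG
same bases in Map3k12: CTAgctgctccccatgccacctgtctccga
Map3k12 coding end: ttgcggcccccagcctcccttcctccaTGA
All 3 are read 5′ to 3′ from transcripts of GENCODE release M21. Only 19 bases separate the end of Pcbp2 from the stop codon of Map3k12. A read in the shared stretch holds the same letters, or their complement, whichever gene it came from. The strand setting of the counting and the gene annotation are not given in the sources used here, so reads of the overlapping genes cannot be told apart, and counts assigned to Map3k12 may hold reads of Pcbp2 or the reverse. Pcbp2 also has an intronless relative, Pcbp1, and a related pseudogene, Gm12186, and whether the counting split reads between them was not tested.

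The starts of the genes lie far from the overlap. The 250 bases before each RefSeq start of Map3k12 are printed because β-catenin acts on genes through TCF/LEF factors, and the letters CTTTG, the core of the sequence these factors bind, are in capitals in either direction. The first start follows chr15:102517005-102517254 and the second follows chr15:102510701-102510950, both on the minus strand of GRCm38.p6.
Map3k12 start 1: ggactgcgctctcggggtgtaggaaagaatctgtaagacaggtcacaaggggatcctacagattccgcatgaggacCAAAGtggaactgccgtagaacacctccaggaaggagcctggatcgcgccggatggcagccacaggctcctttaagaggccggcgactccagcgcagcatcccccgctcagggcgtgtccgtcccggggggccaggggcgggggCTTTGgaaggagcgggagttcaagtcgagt
Map3k12 start 2: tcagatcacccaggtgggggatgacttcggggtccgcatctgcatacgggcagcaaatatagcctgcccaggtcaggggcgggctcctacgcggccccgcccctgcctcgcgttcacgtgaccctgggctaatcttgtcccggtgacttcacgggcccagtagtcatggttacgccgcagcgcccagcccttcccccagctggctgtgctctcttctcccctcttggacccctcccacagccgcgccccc
The first window held CTTTG or its complement CAAAG 2 times and the second 0 times, as did both windows of Pcbp2. On either strand, 48.6% of 32851 RefSeq promoter windows of this length held these letters. None of the 4 windows of both genes held the longer CTTTGAT or its complement ATCAAAG, which 3.21% of all windows held. GGGCGG or its complement CCGCCC, the letters bound by SP1, occurred 1 and 2 times before the starts of Map3k12 and 2 and 10 times in the overlapping windows of Pcbp2. It was present in 32.7% of all windows. These matches describe letters only, and no binding was measured.

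Libraries held between 91468 and 326686 counts, with 221767 to 326686 in the siRNA libraries and 91468 to 122304 in the plasmid libraries. At least 10 counts were found for 1510 to 3846 genes, depending on the library. Nothing in the sample descriptions says that the 3 libraries of a group came from separate cultures, so p-values measure the spread between these libraries. Ctnnb1 had 13, 38 and 28 counts in si-CTL and 0, 11 and 3 in si-Ctnnb1, a log2 difference of -2.54 (SE 0.55; edgeR quasi-likelihood test, adjusted p = 0.00491 after Benjamini and Hochberg). Ctnnb1 also shares 759 exon bases with a gene of the other strand, Ulk4. For S45Y against eGFP its log2 fold change was 0.51 (SE 0.55, adjusted p = 0.989 in edgeR). Gapdh, a gene of glycolysis that cells of every kind use, had only 0 to 6 counts per library, so a gene at or near 0 in this table is not thereby shown to be silent. Of 10 cholangiocyte markers, 8 had counts, summing to 146 to 439 per library, led by the keratins Krt18, Krt8 and Krt19 and by Spp1, while Epcam and Cftr had none. Between si-CTL and si-Ctnnb1, Spp1 had a log2 fold change of -0.74 (adjusted p = 0.126 in edgeR, unadjusted 0.00443) with overlapping libraries, and Krt18 one of -0.39 (adjusted p = 0.321 in edgeR, unadjusted 0.0307) without overlap. Of all genes tested, 8.9% lay lower without overlap and 12.5% had an unadjusted p below 0.05 in edgeR. The other tested cholangiocyte markers were Krt19 at -0.34, Krt8 at -0.09 and Slc4a2 at 0.41 (adjusted p = 0.692, 0.926 and 0.733 in edgeR). The part of these markers in the values of Map3k12 was not tested. All 5 hepatocyte markers were at 0 in every library, as were the leukocyte markers other than Cd68, which held 174 counts over all libraries. Fibroblast or stellate cell markers summed to 4 to 31 counts per library, with 2 of 5 at 0 and 180 of the 186 counts from Acta2, and neuron markers to 0 to 8, with 4 of 6 at 0. In bulk RNA, fewer cells that use a gene and less RNA per cell cannot be told apart.

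Map3k12 was among the most counted genes of the table. Its 13693 counts over all libraries were 0.565% of everything counted, which placed it at rank 8 of 24421. High counts were part of its choice, so this rank is a description. Pcbp2 held 867 counts, or 0.0358%, at rank 455. Per kilobase of merged exon this came to 1520 counts for Map3k12 and 167 for Pcbp2.

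In si-CTL, Map3k12 had 2207, 2397 and 2062 counts. In si-Ctnnb1 it had 1314, 1291 and 1344 counts. The eGFP libraries held 490, 514 and 529 counts, next to 539, 507 and 499 for the S45Y libraries. Both plasmid groups thus held nearly the same raw counts, and every siRNA library held more than every plasmid library before scaling for depth.

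After scaling by TMM over all 12 libraries, the level of Map3k12 in counts per 1000000 counts of the scaled library (CPM) was 10900, 7980 and 7550 in si-CTL and 4940, 4600 and 4810 in si-Ctnnb1. The eGFP libraries gave 4640, 4720 and 5520 and the S45Y libraries 6870, 5800 and 4840. In each of the 4 groups the smallest library had the highest level, replicate 1 in si-CTL, si-Ctnnb1 and S45Y and replicate 3 in eGFP. The part of depth in these levels was not tested. As a mean, Map3k12 stood at 8800 ± 1800 CPM in si-CTL, 5830 ± 1020 in S45Y, 4960 ± 487 in eGFP and 4780 ± 172 in si-Ctnnb1 (SD over 3 libraries). The coefficient of variation was 20.5%, 17.4%, 9.81% and 3.6% in the same order. Libraries of S45Y and eGFP overlapped, as did those of eGFP and si-Ctnnb1, so the order of these neighbours is left undecided here. Every si-CTL library lay above every S45Y library. Between siRNA and plasmid groups, the reagent, the time and the depth cannot be told apart in these levels. Within each library Map3k12 ranked 4 to 5 among all genes in si-CTL, 20 to 23 in si-Ctnnb1, 8 to 10 in eGFP and 5 to 9 in S45Y.

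Pcbp2 had 74, 101 and 110 counts in si-CTL, compared with 77, 105 and 86 when Ctnnb1 was silenced. The eGFP libraries held 71, 43 and 68 counts of it and the S45Y libraries 47, 33 and 52. The groups of each comparison overlapped. On the TMM scale, the level of Pcbp2 was 592 ± 172 CPM for eGFP, 493 ± 111 for S45Y, 368 ± 33.3 for si-CTL and 324 ± 44.5 for si-Ctnnb1 (SD over 3 libraries). Neighbours in this order overlapped in every case, while the si-Ctnnb1 libraries, at 289 to 374 CPM, all lay below the libraries of both plasmid groups, at 378 CPM and above. The order of the groups was not that of Map3k12, which was highest in si-CTL where Pcbp2 was the second lowest. Per kilobase of merged exon, the mean level of Map3k12 ran from 532 ± 19.2 to 979 ± 200 CPM and that of Pcbp2 from 62.2 ± 8.55 to 114 ± 33.1 CPM over the 4 groups.

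**Figure D2:**
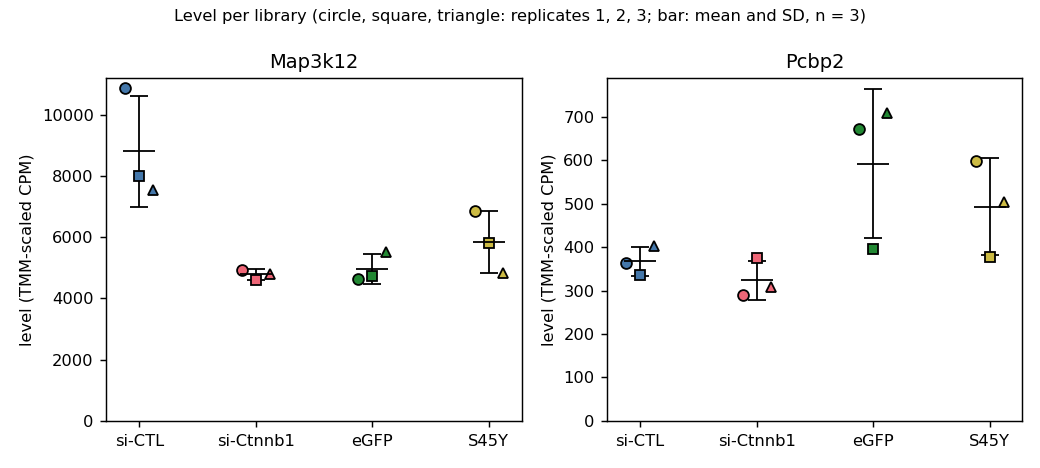
Level in TMM-scaled CPM for Map3k12 (left) and Pcbp2 (right) in the 4 groups, with 1 point per library, its shape giving the replicate, and the mean and SD of 3 libraries as bars. The si-CTL libraries of Map3k12, at 7550 to 10900, sit above all others, and for Pcbp2 each group overlaps the next in the order of the means.

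Between si-CTL and si-Ctnnb1, Map3k12 was lower in every silenced library. With the 6 libraries scaled together, the control mean was 8750 ± 1920 CPM and the silenced mean 4680 ± 165 CPM (SD over 3 libraries). This is a log2 fold change of -0.90 (SE 0.09), so si-CTL was 1.87 times as high. Because this difference chose the gene, it carries no test, and the background is given for reference only: 8.90% of the 3484 genes tested had si-Ctnnb1 libraries that lay below all si-CTL libraries, and 0.746% passed an adjusted p below 0.05 in that direction (8.93% and 0.804% in the other direction). Among the tested genes, 3.33% had a lower log2 fold change than Map3k12. Among the 202 of them with a mean of at least 1000 CPM, only Rn45s, the precursor of ribosomal RNA, was lower. The si-CTL libraries differed among themselves as well, and without si-CTL replicate 1 the log2 fold change was -0.70.

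Pcbp2 differed less in the same libraries. From a control mean of 365 ± 33.1 CPM to a silenced mean of 317 ± 43.8 CPM (SD over 3 libraries), it had overlapping groups and a log2 fold change of -0.20 (SE 0.18). A lower value was found for 32% of the tested genes.

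Rn45s moved with Map3k12 in the siRNA libraries. Its share of the counts was 5.49%, 3.64% and 3.79% for si-CTL, then 2.44%, 1.61% and 2.39% for si-Ctnnb1. In the same libraries Map3k12 took 0.995%, 0.734% and 0.696%, then 0.444%, 0.414% and 0.429%. Replicate 1 of si-CTL, the smallest of these 6 libraries, was highest for both. In the plasmid libraries the shares did not follow each other in this way across groups, since the eGFP libraries gave Rn45s 12.3%, 10% and 15.4% and the S45Y libraries 15%, 10.2% and 13.6%, where Map3k12 took 0.414%, 0.420% and 0.466%, then 0.589%, 0.529% and 0.425%. Within each plasmid group the library highest for Rn45s, eGFP replicate 3 and S45Y replicate 1, was also highest for Map3k12. The remaining libraries of each group stood in opposite order for the 2 genes. With Rn45s left out of the table, the log2 fold change of Map3k12 in silencing was again -0.90. The part of ribosomal RNA content and of depth in the silencing difference was not tested.

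**Figure D3:**
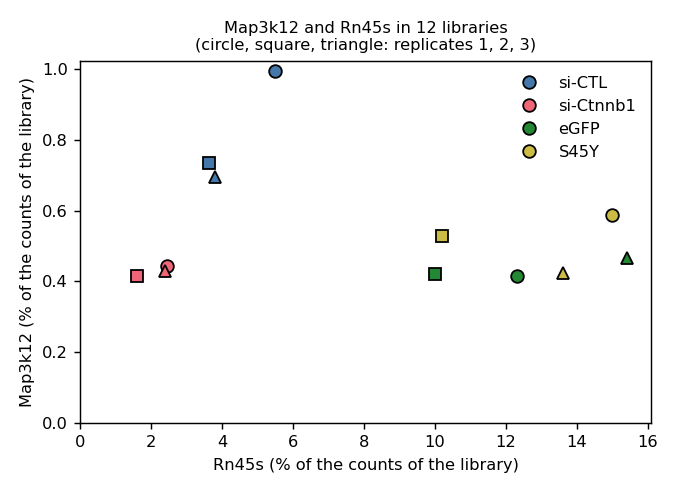
Share of the counts of each library taken by Map3k12 (vertical axis, %) against the share taken by Rn45s (horizontal axis, %), with colours for the 4 groups and shapes for the replicates. The si-CTL points lie above and to the right of the si-Ctnnb1 points, while the eGFP and S45Y points lie at 10% to 15.4% Rn45s with Map3k12 between 0.414% and 0.589%.

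Activation of β-catenin did not give a difference in Map3k12 that passed the test. Scaled with the 6 plasmid libraries alone, Map3k12 had a control mean of 5250 ± 523 CPM and a mean of 6350 ± 1130 CPM with S45Y (SD over 3 libraries). The libraries of the groups overlapped. The log2 fold change was 0.27 (SE 0.14, 95% interval 0.0021 to 0.54), where edgeR gave an adjusted p = 0.841 and an unadjusted p of 0.0483. Of the 1819 genes tested, 0% passed an adjusted p below 0.05 and 5.88% had an unadjusted p below 0.05. An exact permutation test (two-sided, on log2 CPM) gave p = 0.2, where 3 libraries against 3 cannot go below 0.1. Without S45Y replicate 1, the smallest of all 12 libraries, the log2 fold change was 0.12.

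For Pcbp2, the eGFP mean was 629 ± 191 CPM and the S45Y mean 537 ± 122 CPM (SD over 3 libraries), again with overlapping libraries. The log2 fold change of -0.22 (SE 0.25, 95% interval -0.73 to 0.28) had an adjusted p = 0.989 in edgeR. The exact permutation test gave p = 0.6. The plasmid libraries held 33 to 71 counts of Pcbp2, and a change of a size within that interval is left undecided by these libraries. Whether the response of either gene differed between silencing and activation was not tested.

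The ratio of the counts of both genes within a library does not depend on how libraries are scaled. Map3k12 had 29.8, 23.7 and 18.7 times the counts of Pcbp2 for si-CTL and 17.1, 12.3 and 15.6 times for si-Ctnnb1. The eGFP libraries gave ratios of 6.90, 12.0 and 7.78 and the S45Y libraries 11.5, 15.4 and 9.60. Means over 3 libraries were 24.1 ± 5.56 (SD) for si-CTL and 15 ± 2.46 for si-Ctnnb1, then 8.89 ± 2.73 for eGFP and 12.2 ± 2.96 for S45Y. The siRNA groups did not overlap in this ratio, with the lowest si-CTL library at 18.7 and the highest si-Ctnnb1 library at 17.1, which is a description since Map3k12 was chosen on this contrast. The mean log2 ratio differed by -0.67 (si-Ctnnb1 minus si-CTL). In activation the difference of the log2 ratio was 0.46 (two-sided exact permutation test, p = 0.3), and the groups overlapped.

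The unequal counts of Map3k12 and Pcbp2 were usual for such neighbours. In the annotation, 328 pairs of genes of the table had exons that overlap on opposite strands and held at least 1000 counts together. The less counted gene held a median of 6.39% of the counts of its pair (quartiles 1.72% and 23.2%). Pcbp2 held 5.95%, and 48.2% of the pairs had a lower share. In 192 pairs, or 58.5%, the less counted gene held under 10%. By its counts the Map3k12 and Pcbp2 pair ranked 8 of the 328, and by its overlap 40, where the median overlap was 509 bases. The pair was chosen for the high counts of Map3k12 and for its overlap, so these ranks are a description. Genes with an opposite-strand overlap were frequent among the most counted genes, at 84.2% of the 310 genes with at least 1200 counts and a gene model, against 24.1% of all genes of the table with a gene model. Ppib, a cyclophilin gene that most cells use, had 28 counts over all libraries, while Snx22, which overlaps it on the other strand by 825 bases, had 22606. Together with the low counts of Gapdh, these values show that the counts of a gene here need not follow how widely it is used, and the part of the strand in the counts of Map3k12 and Pcbp2 was not tested.

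**Figure D4:**
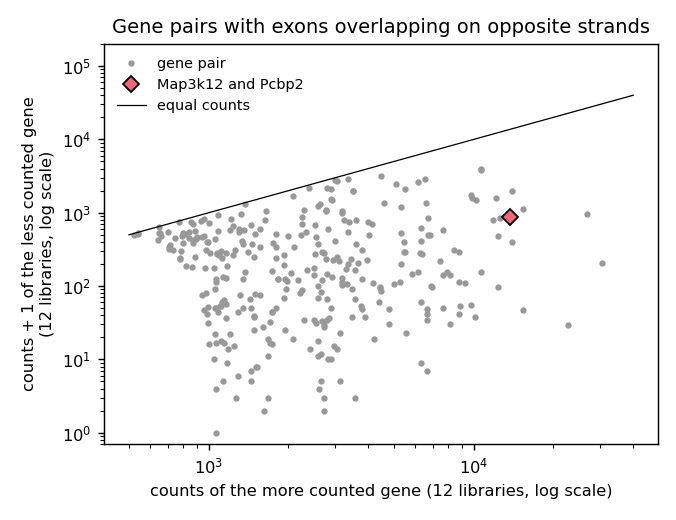
Counts over all 12 libraries of the less counted gene (vertical axis, counts + 1, log scale) against those of the more counted gene (horizontal axis, log scale) for the 328 pairs with exons overlapping on opposite strands. The line marks equal counts, and the pair of Map3k12 with 13693 counts and Pcbp2 with 867 (red) lies well below it, as most pairs do.

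Other genes close to the locus had few counts. The table held 5 further genes whose whole annotated span lies within 100 kb of Map3k12 or Pcbp2, of which 3 had at least 50 counts in all. Genes that reach beyond this window were left out. Sp1, a transcription factor, had 92 counts (log2 fold change in silencing -1.03, SE 0.54, adjusted p = 0.436 in edgeR). Tarbp2, the partner of Dicer in processing small RNAs, had 88 (-0.38, SE 0.53, adjusted p = 0.844 in edgeR), and Npff, a neuropeptide gene, had 114 (-0.13, SE 0.43, adjusted p = 0.951 in edgeR). None of the 3 had enough counts for the test in activation. Per kilobase of exon they held 11.1, 19.3 and 114 counts, all below the 167 of Pcbp2.

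The genes whose levels followed Map3k12 most closely were Degs2 (r = 0.96), Mir6236 (r = 0.956), B3gat2 (r = 0.899), Rn45s (r = 0.854) and Ahsa2 (r = 0.792). These are Pearson correlations of log2 CPM over 12 libraries, centred within the siRNA and the plasmid libraries, among 329 genes with at least 1200 counts, and they share the depth and the scaling of the libraries. The centring keeps the difference between si-CTL and si-Ctnnb1 on which Map3k12 was chosen, so genes lower in silencing are favoured, as Degs2 (log2 fold change -0.67), Mir6236 (-1.18), B3gat2 (-0.35) and Ahsa2 (-0.30) were. Degs2, a gene of sphingolipid synthesis, stood in the order si-CTL (998 ± 182 CPM), S45Y (788 ± 83.0), eGFP (705 ± 59.1) and si-Ctnnb1 (634 ± 96.7, SD over 3 libraries), the same order of groups as Map3k12. B3gat2, a glucuronyltransferase gene, had the same highest and lowest group, from 2600 ± 93.2 CPM for si-CTL to 2070 ± 42.6 for si-Ctnnb1. Mir6236 did not share that order, with 3030 CPM in S45Y, 2360 in eGFP, 952 in si-CTL and 422 in si-Ctnnb1. Ahsa2, related to an activator of HSP90, was instead lowest in eGFP, at 3400 ± 228 CPM against 5920 ± 144 in si-CTL. Rn45s has no gene model in the annotation used and Mir6236 has no partner there, while Degs2, B3gat2 and Ahsa2 overlap a gene on the other strand, as 84.2% of well-counted genes with a gene model did, by 278 bases with Evl, 2076 bases with Smap1 and 2137 bases with Usp34. In each of these pairs the partner had fewer counts, with 16, 107 and 3993 in all. Pcbp2 was followed less closely, at most by Gm12359 (r = 0.61), Myh9, a non-muscle myosin (r = 0.575), Gorasp1, a Golgi protein (r = 0.565), Mrps25, a mitochondrial ribosomal protein (r = 0.553), and Ncl, nucleolin (r = 0.516), among 330 genes. Between Map3k12 and Pcbp2 the same measure was 0.211.

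No gene of the pathways around the pair passed the test. In 3 lists with 66 genes, 23 passed the filter on low counts in silencing and 12 in activation. In the edgeR test 0 of these had an adjusted p below 0.05 in either comparison, and by DESeq2 it was 0 as well. Over all genes, 1.55% passed in silencing. At an unadjusted p below 0.05 there were 6 of 23 in silencing (26.1%, against 12.5% of all genes tested) and 0 of 12 in activation. For 5 of the 23 genes the silenced libraries all lay below the control libraries and for 0 they all lay above, where 8.90% and 8.93% of all genes tested did so.

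Of the 33 genes around DLK and JNK, 2 had no count, 10 were tested in silencing with a median log2 fold change of -0.03, and 5 in activation with a median of -0.15, where all genes tested had medians of 0.00 and 0.02. Map3k13, the closest relative of Map3k12, had 49 counts over all libraries and was not tested. The kinases below DLK were as sparse, with 6 counts for Map2k4, 46 for Map2k7, 37 for Mapk8 and 11 for Mapk9 over all libraries. Hsp90ab1, the HSP90 gene that encodes the constitutive form of the chaperone, led the list with 5442 counts (log2 fold change in silencing -0.18, SE 0.09, adjusted p = 0.390 in edgeR). Its silenced libraries lay below all control libraries, at 2080 ± 20.8 against 2360 ± 112 CPM (SD over 3 libraries), as was the case for 8.90% of all genes tested. Hsp90aa1, the inducible form, had a log2 fold change of 0.71 (SE 0.27, adjusted p = 0.204 in edgeR), with overlapping libraries. The stress transcription factors Ddit3 and Atf4 stood at 0.03 and -0.40 (adjusted p = 0.967 and 0.415 in edgeR), and Jund, a subunit of AP-1, at -0.26. In activation Jund was not tested, and Hsp90ab1, Hsp90aa1, Ddit3 and Atf4 had log2 fold changes between -0.15 and 0.05.

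Among 19 KH-domain genes, 10 were tested in silencing with a median log2 fold change of -0.20, and 5 in activation with a median of 0.55. Pcbp1, the closest relative of Pcbp2, had 97 counts and a log2 fold change in silencing of -0.04 (SE 0.56, adjusted p = 0.990 in edgeR). Hnrnpk, the founding poly(C)-binding protein, was at -0.08 in silencing, and in activation its S45Y libraries lay above all eGFP libraries with a log2 fold change of 0.55 (SE 0.50, adjusted p = 0.989 in edgeR). Non-overlap in that direction was seen for 6.21% of the genes tested in activation. Igf2bp3, an RNA-binding protein of the insulin-like growth factor 2 mRNA, had 1250 counts and lay lower in every silenced library (log2 fold change -0.31, SE 0.15, adjusted p = 0.375 in edgeR). The splicing factor Sf1 did so too (-0.76, SE 0.33, adjusted p = 0.307 in edgeR). Its log2 fold change in activation was 0.87 with overlapping libraries (SE 0.53, adjusted p = 0.931 in edgeR). Of all genes tested in silencing, 8.90% lay lower in every silenced library. Hdlbp, vigilin, had -0.58 in silencing and 0.65 in activation, and Fxr1, a relative of the fragile X protein, -0.01 and -0.58, none with an adjusted p below 0.05. The S45Y libraries of Fxr1 lay below all eGFP libraries, as was seen for 4.67% of the genes tested.

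Of 14 genes tied to Pcbp2 in iron handling and antiviral signalling, 3 were tested in silencing and 2 in activation. Fth1, the ferritin heavy chain, had a control mean of 315 ± 24.6 CPM and a mean of 208 ± 53.2 CPM in silenced cells (SD over 3 libraries), without overlap, as for 8.90% of all genes tested (log2 fold change -0.60, SE 0.21, adjusted p = 0.157 in edgeR). Ftl1, the ferritin light chain, had -0.23 and Ncoa4, the receptor that takes ferritin to autophagy, -0.35. In activation Fth1 was at 0.03 and Ftl1 at 0.71. The antiviral genes were too thinly counted for the test, with 43 counts for Mavs, 58 for Itch and 59 for Ddx58 over all libraries.

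**Figure D5:**
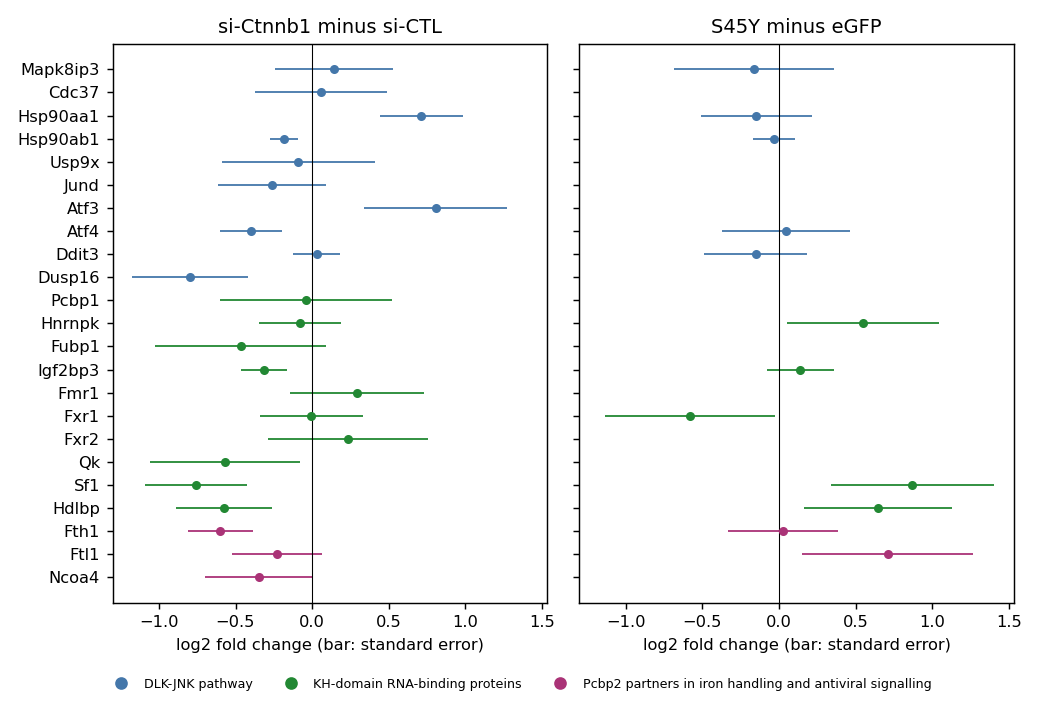
Log2 fold change, with its standard error as a bar, of the 23 list genes that could be tested, in silencing (left, si-Ctnnb1 minus si-CTL) and activation (right, S45Y minus eGFP), coloured by list. Values lie between -0.80 and 0.87, and none had an adjusted p below 0.05.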

How the data were processed

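RNA-seq of 12 SMCC libraries was analysed, 3 per group. The authors deposited raw counts per gene symbol, not normalized and with replicates apart. The submitters' notes name Trimmomatic 0.38, HISAT2 2.1.0, HTSeq 0.11.2 and mm10, and the study's methods name DESeq2. The strand setting and annotation are not given in the sources used here. Depth was 91468 to 326686 counts per library, and 0 columns of the table were left unused.

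The count test was that of edgeR 4.0.16 (R 4.3.3): filterByExpr (minimum count 10, total 15), TMM scaling and the quasi-likelihood test (prior count 0.125), with Benjamini-Hochberg adjustment over all genes tested and a threshold of 0.05. The 6 siRNA libraries and the 6 plasmid libraries were fitted apart. For both members in activation, exact permutation (two-sided) was applied to log2 CPM with a prior count of 2 and to the log2 count ratio with 0.5 added. Alternatives were DESeq2 1.42.0, other size factors and filters, 1 fit of all 12 libraries, a replicate block, other lengths and each library left out. The scripts were tested on simulated data.

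Gene models came from GENCODE M21 (mm10), matching 95.7% of the 24421 symbols, and promoters from RefSeq (GRCm38.p6). The members and the hand-written lists were chosen with earlier results of these data known. The genes named were both members, Ctnnb1, in each list any gene past the threshold and the 5 with most counts, the 5 genes most like each member, and genes wholly within 100 kb with at least 50 counts. Map3k13, Map2k4, Map2k7, Mapk8, Mapk9, Pcbp1, Mavs, Itch, Ddx58, Gapdh, Ppib, Snx22, Gm12186 and the cell type markers Epcam, Cftr, Slc4a2, Cd68 and Acta2, and the overlap partners of named genes, were named in addition, after their values were seen.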

Additional observations from a re-analysis of the deposited data

How the results depend on the processing

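Of 140 values recomputed under alternatives, 136 kept their direction, their side of the threshold or their size within the spread between replicates. The other 4 were levels. With Rn45s left out of the table before TMM scaling, and so out of the library totals, all 8 group levels were higher, and 3 of them passed 1 SD: Map3k12 stood at 5289 CPM in si-Ctnnb1 and 5465 CPM in eGFP, and Pcbp2 at 404 CPM in si-CTL. With only the exon bases outside the overlap as length, chosen after seeing the data, Map3k12 had 7.73 times the counts per kilobase of Pcbp2, since the 1573 bases left out are a larger share of Pcbp2. Only the length changed and all counts were kept, so this value says nothing about reads of the overlap.

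Deviations of same-numbered libraries from their group means correlated at -0.0507 to 0.0142 in silencing and -0.00213 to 0.0271 in activation. In activation, replicates 2 and 3 of eGFP correlated best with the S45Y library of the same number and replicate 1 did not. No replicate did so in silencing. Count noise lowers such correlations at this depth, so they cannot decide whether the replicate numbers pair the libraries. With the replicate number as a block, the log2 fold change of Map3k12 was -0.88 in silencing and 0.27 in activation (adjusted p = 0.853 in edgeR), that of Pcbp2 was -0.20 and -0.21 (adjusted p = 0.990 in edgeR), the ratio difference in activation was 0.46, and 0 list genes passed.

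When 1 library at a time was left out, the log2 fold change in silencing ran from -1.0 to -0.70 for Map3k12 and from -0.31 to -0.12 for Pcbp2. In activation it ran from 0.12 to 0.36 for Map3k12 and from -0.46 to -0.08 for Pcbp2, and the log2 ratio difference from 0.28 to 0.69. Over all alternatives the adjusted p in activation was 0.495 to 0.999 for Map3k12 and 0.861 to 1 for Pcbp2. Pcbp2 is limited by its 33 to 110 counts per library.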
